A study of Mus musculus with 20 samples.

Results

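Cytosolic ribosomal protein genes were followed through macrophages given cholesterol crystals, cyclodextrin, both or neither. The members were all genes with an array probe whose annotated symbol begins with Rpl or Rps and a digit, or is Rplp0, Rplp1, Rplp2 or Rpsa, leaving out the Rps6k kinases and pseudogene names. They comprised 96 of 45281 probes and 65 genes. Of these genes, 57 had a probe that passed the detection filter and were tested among 10018 genes in all: 33 with large subunit names (Rpl) and 24 with small subunit names (Rps). The 8 genes that did not pass were Rpl14, Rpl17, Rpl39l, Rpl3l, Rpl6, Rps20, Rps23 and Rps23rg1, and nothing is said of their change. The naming rule also took in Rps19bp1 and Rpl7l1, whose names derive from ribosomal proteins but which are not among the classical ribosomal proteins.

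The cells were bone marrow-derived macrophages of the C57BL/6 mouse strain, grown from marrow for 6 days with 10% fetal calf serum and 40 ng/ml M-CSF, the cytokine that turns marrow precursors into macrophages. Each group had 5 arrays. CD-cc cells received cholesterol crystals (200 ug for a fixed number of cells) for 3 h and then 10 mM hydroxypropyl-beta-cyclodextrin, a sugar ring that takes up cholesterol, for 6 h. The cc cells received the crystals alone, CD cells the cyclodextrin alone, and con cells were untreated. How long cc and con cells were kept while the others stood in cyclodextrin is not stated in the labels, so time in culture was not tested as a part of CD-cc against cc or CD against con. The labels give donor ages of 2 to 5 months for the CD-cc, cc and CD groups but of 10 to 15 months for con, so age and treatment cannot be told apart in any comparison with con. The series text speaks of LXR-deficient and wild-type mice, while the labels name only the strain. The labels do not say whether the arrays of a group came from separate animals, so the p-values measure the spread between these arrays, which may be technical.

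A ribosome is built from a large and a small subunit, each a core of ribosomal RNA clothed in ribosomal proteins. The mRNAs of these proteins start with a run of pyrimidine bases, the terminal oligopyrimidine (TOP) tract, through which mTORC1 and the RNA-binding protein Larp1 switch their translation on and off together. Much of the control of these genes is therefore known to act on translation, which a measurement of mRNA level does not see. Several members have further roles in immune cells, such as Rpl13a in silencing inflammatory mRNAs in human monocytes.

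The start sites of the members that stood out show both kinds of beginning. RefSeq promoter windows (GRCm38.p6) were matched for 48 of the 57 tested genes, and 5 are given from 40 bases before to 20 bases after the annotated start, with a C followed by at least 4 pyrimidines in capitals where such a tract begins within 5 bases of the start. The windows are chr7:118116128-118116187 (minus strand) for Rps15a, chr4:152325686-152325745 (plus) for Rpl22, chr7:3704001-3704060 (plus) for Rps9, chr15:80264287-80264346 (minus) for Rps19bp1 and chr7:45128726-45128785 (minus) for Rpl13a.
Rps15a: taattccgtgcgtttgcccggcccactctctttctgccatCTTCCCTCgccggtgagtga
Rpl22: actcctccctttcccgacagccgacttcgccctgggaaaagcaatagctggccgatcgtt
Rps9: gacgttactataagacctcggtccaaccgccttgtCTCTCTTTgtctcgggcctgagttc
Rps19bp1: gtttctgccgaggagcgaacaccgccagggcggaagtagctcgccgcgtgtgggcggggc
Rpl13a: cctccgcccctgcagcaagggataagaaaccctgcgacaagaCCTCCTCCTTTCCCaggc

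A tract by this rule was present in Rps15a, Rps9 and Rpl13a. It was found in 22 of the 48 matched members (45.8%), against 18.5% of 27025 promoters. Only the first window listed for each gene was used. The windows of Rpl22 and Rps9 begin after their gene starts (chr4:152324436 and chr7:3703954), so other starts of these genes were not read. The ETS-type core CCGGAAG, on either strand of the 300-base window from 250 bases before to 50 after the start, was held by 20 of the 48 members (41.7%) and 9.12% of all promoters. TATAAA, on the coding strand within 50 bases before the start, was held by 1 member (2.08%) and 2.88% of all promoters. The reverse complement of the ETS-type core begins with letters that can also meet the tract rule, so the counts overlap. These matches describe letters and not bound sites.

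Before any treatment is compared, the arrays themselves fell into 2 kinds. Chips 1 and 5 (12 arrays) had a log2 signal of 11.00 to 11.51 for Xist, the RNA of the inactive X chromosome, and 4.19 to 4.54 for the Y-linked Eif2s3y, while chips 2, 3, 4 and 6 (8 arrays) had 4.26 to 4.45 for Xist and 10.2 to 10.9 for Eif2s3y. Both kinds held all 4 groups, and the authors' value table had been adjusted so that 5 sets of 4 arrays, 1 of each group, shared their means; each set lay within 1 kind of chip. The median bead signal per array was 86.6 to 128, and 33.9 to 39.5% of probes were detected. All 8 macrophage markers with a probe were detected, among them Csf1r and Adgre1. Of the other cell types, none of 5 dendritic cell and none of 3 erythroid markers was detected, 1 of 7 neutrophil, 1 of 5 T and NK cell and 1 of 4 mast cell markers were, and all 5 stromal fibroblast and both B cell markers were. The summed macrophage marker signal was 15.4 to 15.6 on the log2 scale in CD-cc cells, 15.4 to 15.6 in cc cells, 15.7 to 15.9 in CD cells and 15.6 to 15.9 in con cells. The single detected mast cell marker, Kit, stood at 7.40 to 8.79 in CD-cc cells and 7.56 to 9.35 in cc cells, against 4.31 to 4.62 in CD cells, where no array detected it, and 4.29 to 4.82 in con cells, where 2 of 5 arrays did. The part of these shifts in the results was not tested.

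Few ribosomal protein genes changed under any treatment. Crystals alone (cc against con) called 1 member higher and 1 lower of 57, where 17.5% of all genes were called, 8.49% higher and 8.97% lower. Cyclodextrin alone (CD against con) called none, where 1.13% of all genes were called. Cyclodextrin after crystals (CD-cc against cc) called none, as it called 0% of all genes. Crystals before cyclodextrin (CD-cc against CD) called 1 member lower and none higher, where 9.2% of all genes were called, 4.64% lower and 4.56% higher. Both treatments against none (CD-cc against con) called 2 members higher and none lower, where 20.2% of all genes were called, 9.06% higher and 11.1% lower. A call is an adjusted p under 0.05 from limma's moderated test, with Benjamini-Hochberg adjustment over all genes. The interaction, which asks whether cyclodextrin acted differently on cells with crystals, called no member and 0.0399% of all genes. In whole cultures, fewer cells of a type and less RNA per cell cannot be told apart.

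Other call rules were also read. An unadjusted p under 0.05 was found for 6 members in cc against con, beside 29.6% of all genes, for 5 in CD-cc against CD, beside 22.5%, and for 4 in CD-cc against con, beside 32.3%. It was found for 0 members in CD against con, beside 10.5% of all genes, for 1 in CD-cc against cc, beside 8.14% (815 genes), and for 0 in the interaction, beside 2.3% (230 genes). With the 5 sets of arrays as a block, 3 members were called in cc against con, beside 27.7% of all genes, 2 in CD-cc against CD, beside 18.5%, and 2 in CD-cc against con, beside 31.8%. The authors' deposited values with the same block gave more calls among the members: 2 higher and 5 lower in cc against con, beside 28.7% of all genes, 5 lower in CD-cc against CD, beside 19.7%, and 2 higher and 4 lower in CD-cc against con, beside 32.1%. The block called none in either table in CD against con, beside 4.12%, none in CD-cc against cc, beside 1.8%, and none in the interaction, beside 0.14% (shares from the bead signals).

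**Figure D1:**
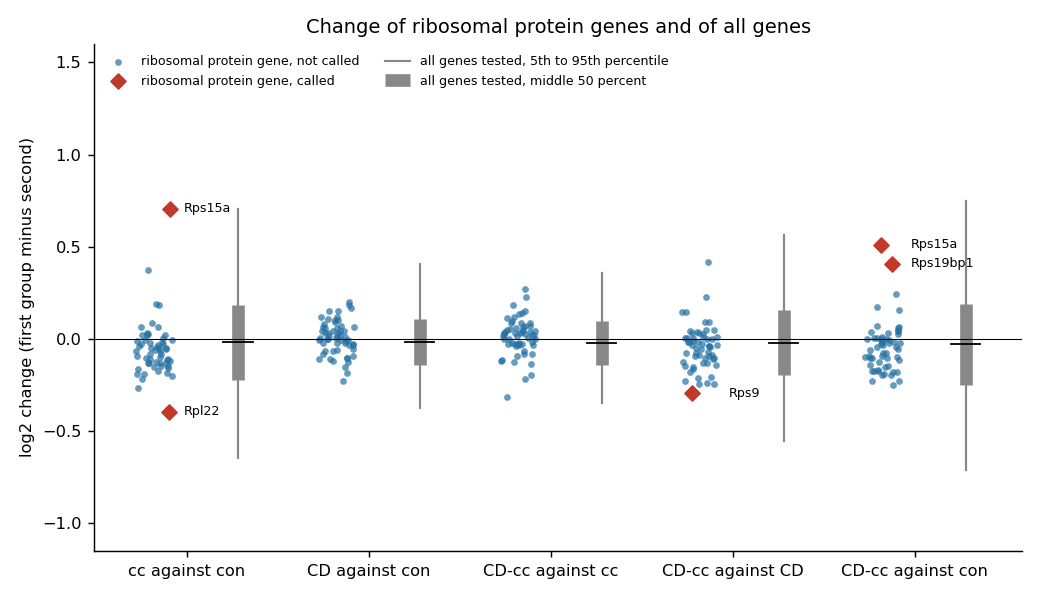
Log2 change of each of the 57 ribosomal protein genes (points, called members as red diamonds) in each of the 5 comparisons, beside the spread of all 10018 genes tested (grey: thick bar the middle 50 percent, line the 5th to 95th percentile, black tick the median). The called members are Rps15a and Rpl22 in cc against con, Rps9 in CD-cc against CD, and Rps15a and Rps19bp1 in CD-cc against con.

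The median log2 change of the 57 members was -0.07 in cc against con, beside -0.02 over all genes. It was 0.01 in CD against con, 0.02 in CD-cc against cc, -0.04 in CD-cc against CD and -0.05 in CD-cc against con, beside medians of -0.02, -0.02, -0.02 and -0.03 over all genes. Negative changes were found in 44 of 57 members in cc against con, where 52.7% of all genes were negative, in 39 of 57 in CD-cc against CD, beside 53.3%, and in 39 of 57 in CD-cc against con, beside 53.5%. They were found in 27 members in CD against con, beside 53.9%, in 24 in CD-cc against cc, beside 54.9%, and in 26 in the interaction, beside 50.1%. The cc against con median of the members by set of arrays was -0.12, 0.02, -0.18, -0.01 and 0.01, so it was below -0.1 in 2 sets and near 0 in 3. With scale in place of quantile normalization the median was 0.00 in cc against con, so the small family-wide shift was not seen there under that scaling. The same scaling moved the median to -0.16 in CD-cc against CD and to -0.094 in CD-cc against cc.

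The width of the intervals shows how small a change these arrays could have hidden. In cc against con the 95% interval lay inside 1.5-fold either way for 49 of 57 members (86.0%) and for 52.6% of all genes. The corresponding counts were 54, 52, 52 and 51 of 57 in CD against con, CD-cc against cc, CD-cc against CD and CD-cc against con. Among the 34 members with a mean log2 signal of 12 or more, all 34 intervals lay inside 1.5-fold in each of these comparisons, as against 201 of 286 other genes as bright in cc against con (70.3%). Of the 102 genes with a mean signal of 13 or more, 26 were ribosomal protein genes. The spread depended on the normalization: the median residual SD of the members was 0.139 with quantile and 0.253 with scale normalization, against 0.258 and 0.334 for all genes.

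**Figure D2:**
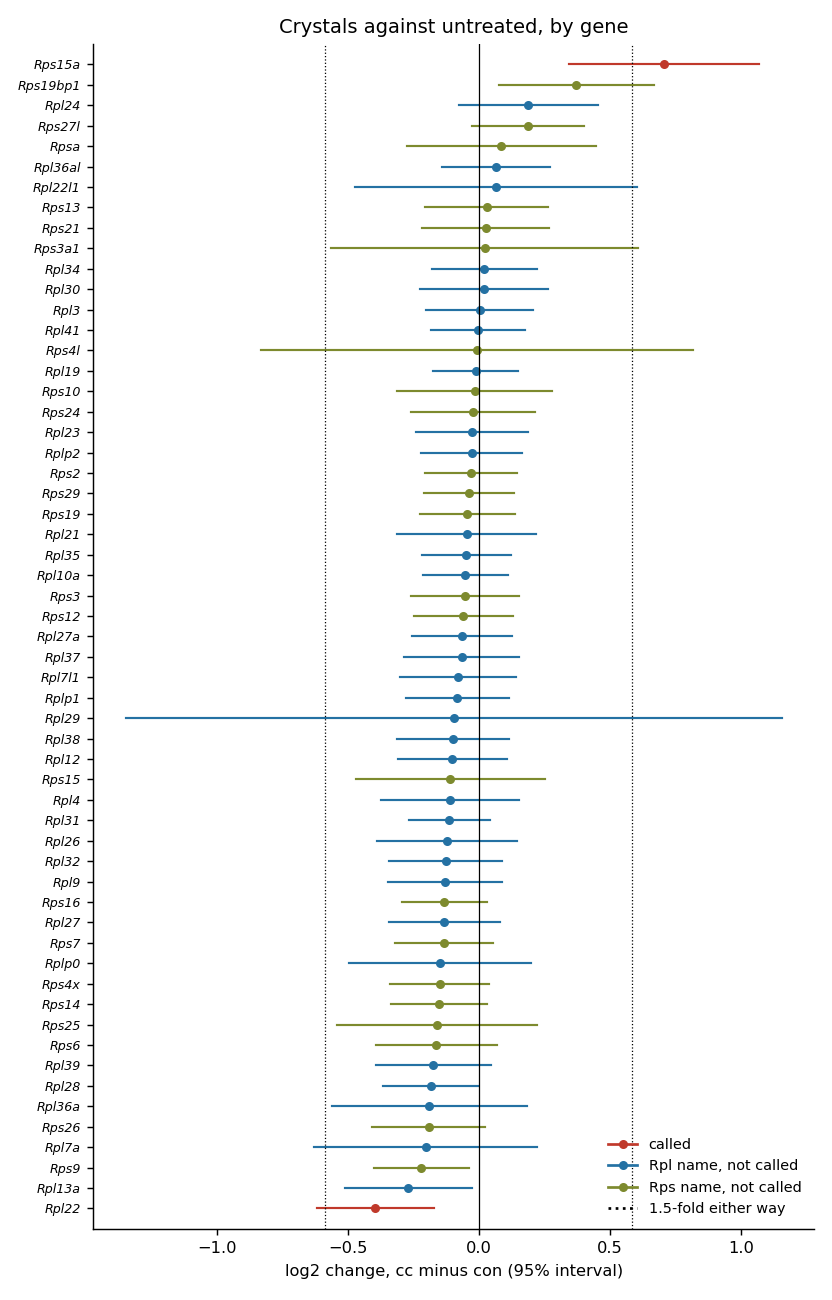
Log2 change of the 57 ribosomal protein genes in cc minus con with its 95% interval, ordered by size, with called genes in red, other Rpl names in blue and other Rps names in green. Dotted lines mark 1.5-fold either way; Rps15a at 0.71 and Rpl22 at -0.39 are the called genes, and Rpl29, which differed between chips, has the widest interval.

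Rps15a, a protein of the small subunit, was higher in cc than in con cells, whose donor ages also differed. Its probe read 6.87, 7.28, 7.06, 6.89 and 7.73 in cc cells on the log2 scale, against 6.52, 6.50, 6.72, 6.21 and 6.34 in con cells. Every cc array was above every con array. The change was 0.71 (SE 0.173, 1.63-fold), with an adjusted p of 0.0077 from limma. It was positive in 5 of 5 sets, which follows from the lack of overlap. The 12 arrays of chips 1 and 5 gave 0.94, and the remaining 8 arrays gave 0.36. In the 2 cyclodextrin groups Rps15a read 7.50, 6.70, 6.98, 6.69 and 6.97 in CD-cc cells and 6.70, 6.53, 6.53, 6.22 and 6.77 in CD cells. Here the groups overlapped, and the change of 0.42 had an adjusted p of 0.15 in limma, or 0.046 with the sets as a block. CD-cc cells stood 0.51 above con cells (adjusted p 0.042 from limma, 1.42-fold). That call was lost when any 1 of 7 arrays was left out, namely CD-cc replicates 1, 3 and 5 or con replicates 1, 2, 4 and 5, with an adjusted p of up to 0.12. Cyclodextrin itself gave 0.09 in CD against con and -0.19 in CD-cc against cc, neither called. The gene lies at chr7:118104374-118116147 in GRCm38.p6, a single probe measured it, and ribosomal protein genes have many processed pseudogenes from which a probe may also take signal. The probe was dim for the family: its mean log2 signal was 6.79, while the median over the members was 12.60 to 12.89 per array.

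Rpl22 is a large subunit protein that lies near the exit of the peptide tunnel and that mice need to make alpha-beta T cells. Its signal was lower in cc than in con cells, whose donor ages also differed. It read 9.57, 9.56, 9.59, 9.68 and 9.42 in cc cells, against 9.96, 9.76, 9.88, 10.27 and 9.92 in con cells. All cc arrays lay below all con arrays. The log2 change was -0.39 (SE 0.107, 1.31-fold lower, adjusted p 0.014 from limma), with -0.53 from chips 1 and 5 and -0.19 from the remaining arrays. It was negative in each of the 5 sets, which again follows from the lack of overlap. Without con replicate 4, the highest array, the adjusted p was 0.0500048, just outside the threshold. The call was also lost with scale normalization (-0.29, adjusted p 0.43) and on the 8 arrays of the other chips alone (adjusted p 0.64). In cells with cyclodextrin Rpl22 read 9.66, 9.69, 9.89, 9.72 and 9.99 in CD-cc cells and 9.82, 10.02, 9.99, 10.22 and 9.95 in CD cells, a change of -0.21 that did not pass the test (adjusted p 0.25). CD-cc cells lay 0.23 above cc cells in 5 of 5 sets, with an unadjusted p of 0.047 and an adjusted p of 0.60. Its paralog Rpl22l1, which Rpl22 is known to repress in mice, averaged 5.67 in cc cells and 5.60 in con cells, a difference of 0.06 with a 95% interval from -0.47 to 0.60.

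Rps9, which lines the mRNA entry channel of the small subunit, was lower in cells given both treatments than in cells given cyclodextrin alone. It read 13.13, 13.18, 13.19, 13.21 and 13.36 in CD-cc cells, against 13.46, 13.50, 13.48, 13.55 and 13.54 in CD cells. The groups did not overlap. The change was -0.29 (SE 0.087, 1.23-fold lower, adjusted p 0.038 from limma), with all 5 sets negative, as the lack of overlap implies. Its other detected probe gave -0.38, with an adjusted p of 0.054 when all probes were tested. The call was lost without any 1 of 8 arrays, CD-cc replicates 1 to 4 or CD replicates 2 to 5, with an adjusted p of up to 0.090. In cc against con the same gene read 12.96, 13.16, 13.28, 13.21 and 13.23 in cc cells against 13.38, 13.21, 13.35, 13.50 and 13.49 in con cells, a change of -0.22 with an adjusted p of 0.092.

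Rps19bp1, a nucleolar protein that binds Rps19 and activates the deacetylase Sirt1, was higher after both treatments than in untreated cells. It read 6.85, 6.48, 6.82, 6.82 and 7.09 in CD-cc cells, against 6.15, 6.46, 6.56, 6.16 and 6.69 in con cells. The groups overlapped, and the change of 0.41 (SE 0.142) had an adjusted p of 0.048 from limma. The call was lost when any 1 of 14 arrays was left out, CD-cc replicates 1, 3, 4 and 5, cc replicates 1, 3, 4 and 5, CD replicates 1 to 3 and con replicates 1, 2 and 4, with an adjusted p of up to 0.13. In cc against con the change was 0.37 (adjusted p 0.080).

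**Figure D3:**
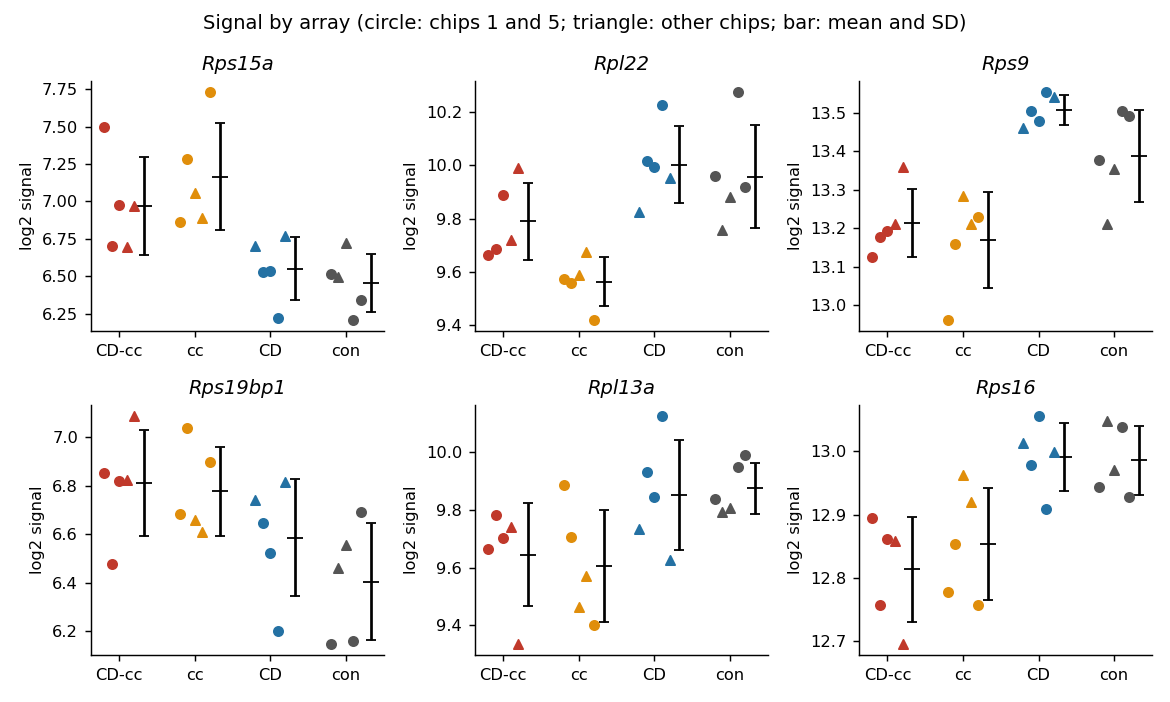
Log2 signal of Rps15a, Rpl22, Rps9, Rps19bp1, Rpl13a and Rps16 on each array, in CD-cc, cc, CD and con cells, with circles for chips 1 and 5, triangles for the other chips, and the group mean with its SD (n = 5). Rps15a lies between 6.87 and 7.73 in cc cells and between 6.21 and 6.72 in con cells.

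Crystals were compared on separate arrays without cyclodextrin (cc against con) and with it (CD-cc against CD). Values of some members, picked with their values known, are set side by side in that order. The change was 0.71 and 0.42 for Rps15a, -0.39 and -0.21 for Rpl22, -0.22 and -0.29 for Rps9, and -0.27 and -0.21 for Rpl13a. It was -0.15 and -0.24 for Rps4x, -0.13 and -0.18 for Rps16, and -0.19 and -0.24 for Rps26, which sits at the mRNA exit. Of these 14 values, 3 were called: Rps15a and Rpl22 without cyclodextrin and Rps9 with it. Other members changed sign, among them Rpl36a at -0.19 and 0.15 and Rps6 at -0.16 and 0.03, none of these called. How many members kept their sign was not counted. Groups that did not overlap were Rps15a and Rpl22 in cc against con, beside 14.9% of all genes, and Rps4x, Rps9 and Rps16 in CD-cc against CD, beside 7.49%. Rpl31 alone did not overlap in CD against con, beside 3.12%, at a change of -0.08. Rpl31, Rps16 and Rpl13a did not overlap in CD-cc against con, beside 14.9%, and no member did so in CD-cc against cc, beside 1.38%.

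None of the 5 tested members listed for a role outside the ribosome was called in any of the 5 comparisons. Of all genes, 0 to 20.2% were called there, so no call among so few genes is not read as a result. Rpl13a, which joins the complex that silences inflammatory mRNAs, read 9.89, 9.71, 9.46, 9.57 and 9.40 in cc cells and 9.84, 9.79, 9.81, 9.95 and 9.99 in con cells. Only cc replicate 1 reached the con range. The change was -0.27 (adjusted p 0.13 in limma), and it passed the test with the sets as a block (adjusted p 0.031), being negative in 5 of 5 sets. The others gave, in cc against con, -0.05 for Rps3, which also serves as a partner of NF-kappaB, -0.16 for Rps6, the substrate of the S6 kinases, -0.04 for Rps19, mutated in human Diamond-Blackfan anaemia, and -0.03 for Rpl23, which binds Mdm2. The same 4 genes lay between -0.17 and -0.02 in CD-cc against con.

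The acidic stalk, where translation factors dock on the large subunit, had no called gene in any comparison, beside 0 to 20.2% of all genes. With 3 genes this is not read as a result. Rplp0, its base, averaged 8.29 ± 0.23 in CD-cc cells, 8.18 ± 0.29 in cc cells, 8.39 ± 0.21 in CD cells and 8.33 ± 0.32 in con cells (SD, n = 5 each). Rplp1 averaged 14.20 ± 0.10 in CD-cc cells, 14.22 ± 0.10 in cc cells, 14.35 ± 0.17 in CD cells and 14.30 ± 0.08 in con cells. Rplp2 averaged 13.54 ± 0.17 in CD-cc cells, 13.47 ± 0.07 in cc cells, 13.49 ± 0.08 in CD cells and 13.49 ± 0.12 in con cells. The groups overlapped for all 3 genes in every comparison, and the changes lay between -0.15 and 0.11.

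At the rim of the peptide exit tunnel, 7 members were tested and Rpl22 alone was called, in cc against con (14.3%), near the 17.5% of all genes called there. In cc against con the other 6 gave -0.01 for Rpl19, -0.12 for Rpl26, -0.11 for Rpl31, -0.05 for Rpl35, -0.10 for Rpl38 and -0.17 for Rpl39, with no call. At the mRNA exit, Rps26 gave -0.19 and Rpsa 0.09 in the same comparison. The Rpsa probe lay close to background (mean log2 signal 4.74), detected on 2 of 5 cc and 3 of 5 con arrays. Of the 6 tested paralogs and name-alikes, only Rps19bp1 was called, and that in CD-cc against con, beside 20.2% of all genes. In cc against con Rps27l, a p53 target in human cells, gave 0.19 and was higher in 5 of 5 sets (adjusted p 0.24), while Rpl36al gave 0.07, Rpl7l1 gave -0.08 and Rps4l gave -0.01. Of the tested parents of paralogs besides Rpl22 and Rpl39, Rpl36a gave -0.19, Rpl3 0.00 and Rps4x -0.15. Among the 15 members with more than 1 detected probe, the probes of 4 genes differed in sign in cc against con, and those of 8 did so in CD against con.

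The largest differences in the family lay between chips. With group in the model, 10 of 57 members differed between chips 1 and 5 and the other chips (adjusted p under 0.05 from limma), 8 higher and 2 lower, beside 26.1% of all genes. Rpl29, a large subunit protein that mice can live without, stood first. It read 12.14 to 12.57 on chips 1 and 5 (median 12.40, 12 arrays) and 10.28 to 10.74 on the other chips (median 10.55, 8 arrays). Its difference was 1.89 (SE 0.074, 3.72-fold, adjusted p 1.39e-13), the 35th largest of all genes. The other Rpl29 probe had a raw bead signal of 561 to 917 on chips 1 and 5, all detected, and of 84.6 to 110 on the other chips, where 2 of 8 arrays detected it. Rps4l, an Rps4 copy on chromosome 6, was detected on 12 of 12 arrays of chips 1 and 5, at 5.43 to 6.03, and on 1 of 8 arrays of the other chips, at 4.37 to 4.82, close to background. Rps3a1, a small subunit protein, read 9.25 to 10.36 on chips 1 and 5 and 8.84 to 9.49 on the other chips, a difference of 0.73 (SE 0.119, adjusted p 0.00013). Rps4l passed the detection filter through chips 1 and 5, where it was higher, so its difference is not read as a result. Of the 53 members detected on all 20 arrays, 9 differed between the kinds of chip, beside 28.03% of all genes so detected, and Rpl29 alone did not overlap; with Rps4l, 2 members did not overlap, beside 2.41% of all genes. The other members that differed did so by 0.17 to 0.37 upward or by -0.18 and -0.19, among them Rpl36a at 0.37, Rplp0 at 0.36 and Rps10 at 0.32. The kinds of chip coincide with the Xist and Eif2s3y pattern, and chip and pattern cannot be told apart.

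**Figure D4:**
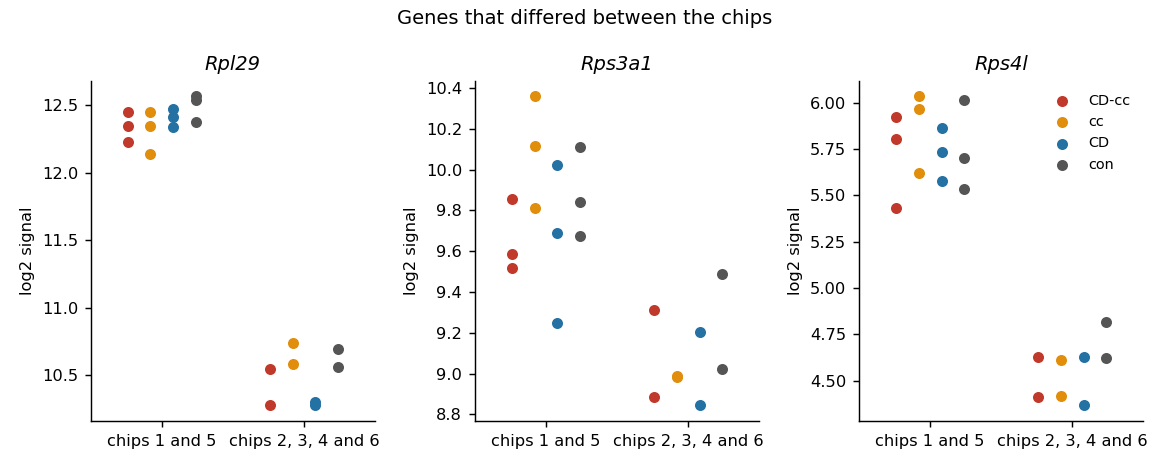
Log2 signal of Rpl29, Rps3a1 and Rps4l on the 12 arrays of chips 1 and 5 (left) and the 8 arrays of chips 2, 3, 4 and 6 (right), coloured by treatment group. Rpl29 lies between 12.14 and 12.57 on the left and between 10.28 and 10.74 on the right in all groups.

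Because of this split, the treatment change of Rpl29 had an SE of 0.599 without the set block and of 0.098 with it. Its change in cc against con was -0.09, with a set-block adjusted p of 0.53. Chips 1 and 5 gave -0.18, and the remaining arrays 0.03. No member's treatment change differed between the kinds of chip in any comparison, at an adjusted or an unadjusted p under 0.05, while 13 of all genes did so in cc against con and 128 in CD-cc against con by adjusted p.

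Many genes that build ribosomes rose with crystals. Of 65 tested genes for ribosome biogenesis and RNA polymerase I, 26 rose and none fell in cc against con, beside 8.49% of all genes higher and 8.97% lower. In CD-cc against CD 10 rose and none fell, beside 4.56% higher and 4.64% lower, and in CD-cc against con 29 rose and 1 fell, beside 9.06% higher and 11.1% lower. With the sets as a block 33 were higher and 1 lower in cc against con, beside 27.7% of all genes called either way. In CD-cc against CD 21 were higher and 1 lower, beside 18.5%. In CD-cc against con 37 were higher and 2 lower, beside 31.8%. Of the 58 genes of the list detected on all 20 arrays, 24 rose and none fell in cc against con, beside 20.8% of all genes so detected called either way. None was called in CD against con or CD-cc against cc, with or without the block. The list's median change was 0.34 in cc against con, beside -0.07 for the ribosomal protein genes and -0.02 for all genes; the difference between the lists was not tested. The list median by array was 8.53, 8.31, 8.13, 8.08 and 8.42 in cc cells, against 7.97, 7.92, 7.90, 7.64 and 7.78 in con cells, with no overlap. That of the ribosomal protein genes was 12.61, 12.85, 12.81, 12.79 and 12.76 in cc cells and 12.89, 12.67, 12.60, 12.67 and 12.89 in con cells, with the ranges overlapping almost wholly.

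Rrp12, known in yeast for the export of both subunits, read 9.09, 8.53, 8.69, 8.98 and 8.91 in cc cells, against 7.82, 8.20, 7.99, 7.64 and 8.01 in con cells. The groups did not overlap, and the change was 0.91 (SE 0.163, 1.88-fold, adjusted p 0.00080 from limma). Nmd3, the export adaptor of the large subunit, rose by 0.96 (adjusted p 0.0029 from limma) and Noc3l, known in yeast for large subunit assembly, by 0.90 (adjusted p 0.0040). In CD-cc against con, Grwd1, whose yeast counterpart is a chaperone of Rpl3, rose by 1.09 (adjusted p 0.0030 in limma). Rrp9, a part of the U3 particle, rose there by 1.05 (0.0032) and Nop2, an rRNA methyltransferase, by 1.03 (0.0044). Donor ages also differed in these comparisons with con. In CD-cc against CD, where the age labels match, Rrp12 rose by 0.73 (adjusted p 0.0071 from limma). Grwd1 stood at 0.70 there and was not called (adjusted p 0.072). Rrp9 stood at 0.41 in CD against con, not called (adjusted p 0.61).

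**Figure D5:**
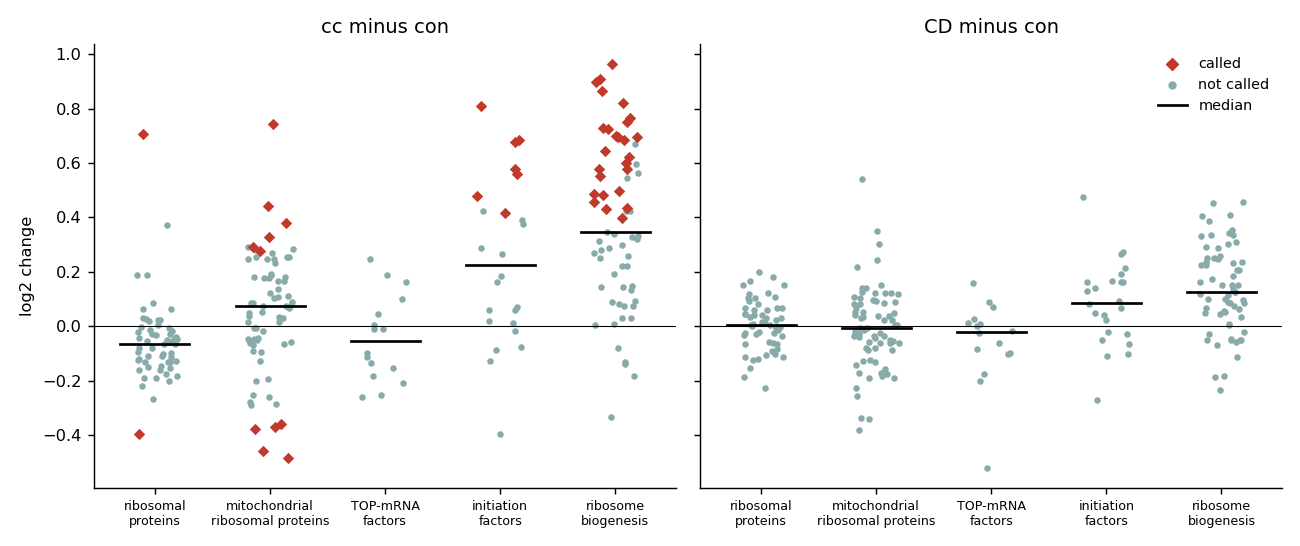
Log2 change of each tested gene of 5 lists in cc minus con (left) and CD minus con (right), called genes as red diamonds and the list median as a black bar. On the left 26 of 65 ribosome biogenesis genes are called higher, against 1 higher and 1 lower of 57 ribosomal protein genes; on the right none of these lists has a called gene in the fit shown, without the set block.

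Other translation genes gave mixed counts. Of 24 initiation factors, 7 rose in cc against con, beside 8.49% of all genes higher, led by Eif5 (0.81), the GTPase activator of start codon choice, Eif4ebp1 (0.68), the repressor of cap binding that mTORC1 phosphorylates, and Eif2s2 (0.68), a subunit of the initiator tRNA carrier. In CD-cc against con Eif6, which keeps the subunits apart, rose by 0.86. In CD against con Eif6 stood at 0.48 and the mitochondrial ribosomal protein gene Mrpl57 at 0.54, and each passed the test with the set block alone (adjusted p 0.033 and 0.036 from limma, against 0.20 and 0.17 without it). Of 16 translation factors whose mRNAs share the oligopyrimidine start of the ribosomal proteins, none was called in cc against con, beside 17.5% of all genes. Their median there was -0.06. In CD-cc against con 1 fell, Nap1l1 at -0.34, beside 11.1% of all genes lower. Of 72 mitochondrial ribosomal proteins, encoded by a separate gene family, 6 rose and 5 fell in cc against con (15.3%), near the 17.5% of all genes called, with Mrps18b highest at 0.74 and Mrps21 lowest at -0.48.

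Of 18 tested genes that control the synthesis of ribosomal proteins, 5 were called in cc against con (27.8%), beside 17.5% of all genes. That count includes Sesn2, which is set aside below. The list's median was 0.10. Of the 13 detected on all 20 arrays, 3 rose and 1 fell, beside 20.8% of all genes so detected called either way. Atf4, the transcription factor of the amino acid and stress response, rose by 1.03 (2.04-fold, adjusted p 0.0011 from limma), reading 12.52, 12.66, 11.95, 12.02 and 12.86 in cc cells against 11.57, 11.52, 11.43, 10.99 and 11.37 in con cells, with no overlap. Sesn2, which restrains mTORC1 when leucine is scarce, was detected on 5 of 5 cc arrays and 0 of 5 con arrays; it passed the detection filter through the groups where it was higher, so no test is given for it. Larp1, the protein that binds the oligopyrimidine start, rose by 0.88 (adjusted p 0.012 from limma), reading 7.51, 6.77, 6.81, 6.69 and 7.12 in cc cells against 6.03, 6.35, 6.34, 6.35 and 5.41 in con cells. In CD-cc against con, where donor ages also differed, Atf4 rose by 0.80 and Larp1 by 1.08. In CD-cc against CD, where the age labels match, Atf4 rose by 0.73 (adjusted p 0.019 from limma). Larp1 stood at 0.59 there and was not called (adjusted p 0.13 from limma). Larp1 also stood at 0.48 in CD against con, not called (adjusted p 0.48 from limma). Of 14 genes for ribosome rescue and salvage, 3 rose and 1 fell in cc against con, beside 8.49% of all genes higher and 8.97% lower, the largest change being 0.65 for Usp10, a deubiquitinase of stalled small subunits in human cells.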

How the data were processed

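RNA of 20 macrophage cultures was hybridised to Illumina mouse BeadChips, 4 groups of 5 arrays on 6 chips. The deposited bead file holds, per the file headers, an average signal (intensity, linear, not background-subtracted) and a detection p-value for 45281 probes and 20 arrays. The authors' value table holds log2 values; recomputation matched it to quantile-normalised log2 bead signals in which 5 sets of 4 arrays had been given equal means (SD of the difference 6.96e-05, at most 0.0185, 20 of 20 arrays matched, column medians 6.71 to 6.72). Partek is named, per the submitters' processing notes.

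Values reported here started from the bead signals: neqc in limma 3.58.1 (R 4.3.3) with background inferred from detection p, offset 16 (which shrinks changes of dim probes), quantile normalization and log2. The filter kept 18348 probes that 5 or more arrays detected (p under 0.05), and the brightest with 1 symbol stood for its gene. Of all probes, 34885 had 1 gene symbol, 18 several and 10378 none. All 96 member probes matched RefSeq by Entrez ID with no differing symbol. Groups were fitted with lmFit, contrasts.fit and eBayes, two-sided, without a block, on all 20 arrays. The fit was tested on simulated data for cc against con with 10018 genes. It called 18 of 50 genes changed by a log2 of 0.5 and 42 of 50 changed by 1. It called 43 of 50 changed by -1 and 50 of 50 changed by 2. The simulated noise was independent between arrays, and the changed genes were drawn from all genes tested. These rates therefore check the fit and do not give its power for the members. Counts over genes detected on all 20 arrays were added after the values were seen. The number of arrays limits the precision. No 2 arrays were identical. Same-numbered replicates did not deviate together (mean correlation -0.14 to -0.02 per number), so the numbers were not taken as pairs. Arrays of the same set did deviate together (mean correlation 0.31 to 0.59 per set), and each set lay within 1 kind of chip. The main fit leaves this pairing out, and counts with the sets as a block are given beside it. Per-sample values are log2 after neqc.

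Members, gene lists and alternatives were chosen with earlier results of these data known, as was the comparison of chips. Named genes were called members (up to 5 each way), members of 7 small functional lists whatever their result, and up to 3 of the largest changes of each pathway list; Rps16, Rps10, Rpl29, Rps3a1, Rps14 and Rpl28 were added after their values were seen. Ribosomal proteins without a probe of the naming rule were not analysed here.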

Additional observations from a re-analysis of the deposited data

Results flagged for a closer look

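For 20 members and the median of all 57, 84 groups of 5 arrays were tested with Dixon's ratio (critical value 0.71), and 3 held an array far from the other 4; chance gives about 1 in 20. Rpl13a read 9.34 in CD-cc replicate 5, against 9.66 to 9.78 in the other 4. Rplp1 read 14.44 in con replicate 2, against 14.25 to 14.30. Rpl36al read 11.34 in CD-cc replicate 2, against 11.62 to 11.73.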

How the results depend on the processing

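Calls were recomputed under 17 alternative settings (16 for the interaction) and with each of the 20 arrays left out, and no reported value changed sign while called. CD against con, CD-cc against cc and the interaction kept 0 called members throughout. Counts for cc against con, CD-cc against CD and CD-cc against con (2, 1 and 2) were 1, 0 and 0 with scale normalization. They were 7, 5 and 6 in the authors' table with the set block, beside 28.7, 19.7 and 32.1% of all genes. There 2 rose and 5 fell (Rps14, Rps9, Rpl28, Rpl22 and Rpl13a) in cc against con. The count in CD-cc against CD was 3 without background correction, 2 with trend and robust fitting or the set block, and 0 with all probes, the dimmest probe, either chip block (fixed or random), only the groups compared, or either kind of chip alone. The count in CD-cc against con was 1 with the dimmest probe, trend and robust fitting or the other chips alone, and 0 without a detection filter, with either chip block, only the groups compared, chips 1 and 5 alone or without the 3 arrays of lowest signal. The other chips alone gave 0 in cc against con. Scale normalization moved the members' median to -0.094 in CD-cc against cc, -0.16 in CD-cc against CD and -0.16 in the interaction (0.02, -0.04 and 0.01 as reported). Leaving out 1 array gave 1 to 2, 0 to 1 and 0 to 2 calls in the same 3 comparisons. With the replicate number as a block the counts were 2, 1 and 2, unchanged; 4 of 20 arrays correlated best with their own number. Shares of all genes called are not given here for settings other than the set block. A drop to 0 members under those settings is therefore not read as a result about the family. The cause of the shifts between settings was not tested.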
